A study of Mus musculus with 6 samples.

Results

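The transcript levels of 9 regulators and marker genes of the primitive and visceral endoderm were examined in mouse embryoid bodies (EBs) that carried or lacked a functional Tnfaip2 gene. The genes were chosen by symbol from the deposited count table, and all 9 were found among its 52636 genes: Gata4, Gata6, Sox17, Sox7, Pdgfra, Dab2, Cubn, Foxq1 and Hnf4a. All 9 passed the filter on low counts and were among the 17849 genes tested. EBs were spherical aggregates of E14 mouse embryonic stem cells (ESCs), grown in hanging drops for 3 days (sources differ on the volume of a drop and its number of cells) and then kept for 3 days on gelatin in fibroblast medium to differentiate. WT EBs came from the parental E14 line and Tnfaip2-/- EBs from 1 CRISPR-Cas9 clone of it with a premature stop codon in exon 2, with 3 libraries of bulk RNA per genotype. The comparison asked how the endoderm program of differentiating EBs differed when Tnfaip2 was lost. As each genotype was 1 line, p-values measure the spread between replicate preparations of that line, and the edit cannot be told apart from other differences between the clone and its parent.

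The primitive endoderm is the extraembryonic layer that separates from the epiblast in the blastocyst and also forms on the surface of EBs. GATA6, switched on by FGF signalling and opposed by NANOG, starts the program, and PDGFRA, SOX17, GATA4 and SOX7 follow. The layer then divides into parietal endoderm, which secretes a thick basement membrane, and visceral endoderm, an absorptive epithelium that takes up maternal proteins through cubilin, megalin and the adaptor DAB2 and, under HNF4A, secretes apolipoproteins, transthyretin and alpha-fetoprotein.

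Tnfaip2 itself, the edited gene, had 7, 4 and 7 counts in the WT libraries and 0, 2 and 2 counts in the Tnfaip2-/- libraries. The genotypes did not overlap, and the summed counts of 18 and 4 correspond to a WT level 4.39 times the Tnfaip2-/- level (95% counting interval 1.44 to 17.8). The gene was under the filter on low counts in both genotypes, and a stop codon need not remove the transcript, so its counts check the labels weakly. Library totals were close to each other, with 22987433, 22489903 and 23804489 counts in WT and 22480962, 21765931 and 21986960 counts in Tnfaip2-/- EBs. At these depths a count of 0 allows a level of up to 3 counts, or 0.128 to 0.137 CPM, the count scaled to a common library total with TMM factors, and such limits cover counting error only.

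The EB label was checked against markers of the cells it could hold. Per kilobase of exon, the pluripotency gene Pou5f1 stood at 338 ± 4.28 CPM in WT and 186 ± 2.66 CPM in Tnfaip2-/- EBs (mean ± SD, n = 3), against 0.699 ± 0.0463 and 0.771 ± 0.0551 CPM for Gata6. Not all pluripotency genes stood so high, and Tfcp2l1, at 2.52 ± 0.0237 CPM in WT EBs, lay below Dab2 and Cubn there. Among defining products of the visceral endoderm, Apoc2 was at 0 in all 6 libraries and Apoa4 had at most 3 counts in any, but both share many exon bases with other annotated genes, where reads may have been left out as ambiguous, so these counts do not show that the products were absent. Afp had 21, 16 and 25 counts in WT EBs and 1, 0 and 2 in Tnfaip2-/- EBs. In WT EBs, Ttr was at 4.25 ± 0.147 and Apoa1 at 2.5 ± 0.083 CPM per kilobase, both above Gata6 there.

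Of the 9 endoderm regulators, 5 were called between genotypes by edgeR's quasi-likelihood test at a Benjamini-Hochberg adjusted p below 0.05, against 67.7% of all genes tested. Sox17 and Sox7 were higher in Tnfaip2-/- EBs, where 34.0% of all genes were called higher. Pdgfra, Dab2 and Cubn were lower, where 33.7% of all genes were called lower. Gata4, Gata6, Foxq1 and Hnf4a were not called. DESeq2 called 3 of the 9 (Sox7, Pdgfra and Dab2; 58.9% of all genes), 3 were called without Tnfaip2-/- replicate 3 (63.5% of all genes), and a test against a 1.5-fold change called 0, also at an unadjusted p below 0.05 (15.7% of all genes at the adjusted threshold). The share of called genes, 5 of 9 or 55.6%, lay near that of the 9140 genes with a mean CPM in the range of the regulators, of which 69.2% were called, and is not a result about the regulators.

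None of the 9 regulators changed by 2-fold or more, by edgeR or by DESeq2. Of genes in the same CPM range 9.61% were called and changed by at least that much, and of all genes tested 12.0%; over 9 genes a count of 0 is near these shares and is not a result about the regulators. The median absolute log2 fold change of the 9 was 0.172, from 0.039 for Gata4 to 0.639 for Sox7, and that of all genes tested was 0.302. The genotypes did not overlap in CPM for 5 of the 9, 3 of them higher and 2 lower in Tnfaip2-/- EBs, against 69.4% of all genes tested (34.9% higher and 34.5% lower). The median signed log2 fold change of the 9 was 0.14, beside 0.003 for all genes tested. The summed level of the 9 was 127, 128 and 125 CPM in the WT libraries and 121, 118 and 120 CPM in the Tnfaip2-/- libraries, of which Cubn alone made up 40.4%. With bulk RNA, fewer cells of a type and less RNA per cell cannot be told apart.

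**Figure D1:**
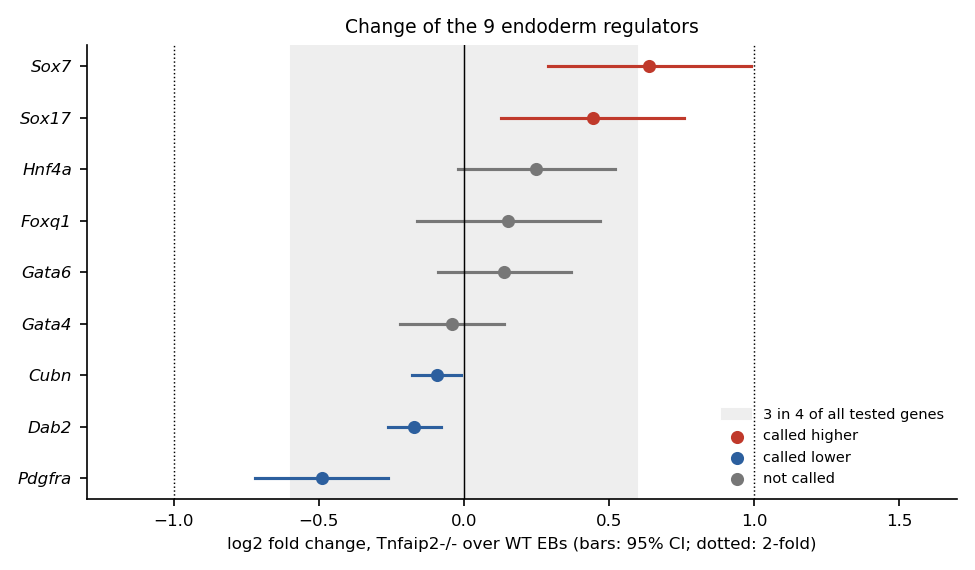
Log2 fold change of each regulator in Tnfaip2-/- EBs over WT EBs (x axis) by edgeR, with bars for the 95% confidence interval (CI); the grey band spans the 0.596 on either side of 0 that holds 3 in 4 of all tested genes, and dotted lines mark 2-fold. Sox7, at 0.64, lies outside the band, and Pdgfra, at -0.49, is the lowest.

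Per kilobase of exon, the order of the regulators in WT EBs was Dab2 (6.25 ± 0.222 CPM), Cubn (3.44 ± 0.12), Gata4 (2.24 ± 0.19), Gata6 (0.699 ± 0.0463), Hnf4a (0.647 ± 0.0546), Pdgfra (0.613 ± 0.0363), Sox7 (0.58 ± 0.145), Sox17 (0.534 ± 0.125) and Foxq1 (0.506 ± 0.0753). The uptake genes Dab2 and Cubn and the factor Gata4 were separated from each other and from the rest by more than their SD. Neighbours from Gata6 down to Foxq1 differed by less than the sum of their SDs. The place of Foxq1 is uncertain, since most of its exon bases are shared with a gene on the opposite strand, where reads may have been counted for neither gene, and its level may be understated; to a lesser extent this holds for Sox17. In Tnfaip2-/- EBs the first 3 places were the same, at 5.55 ± 0.201, 3.22 ± 0.0788 and 2.18 ± 0.183 CPM, Sox7 came next at 0.903 ± 0.152 CPM, and Pdgfra came last at 0.436 ± 0.0513 CPM.

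**Figure D2:**
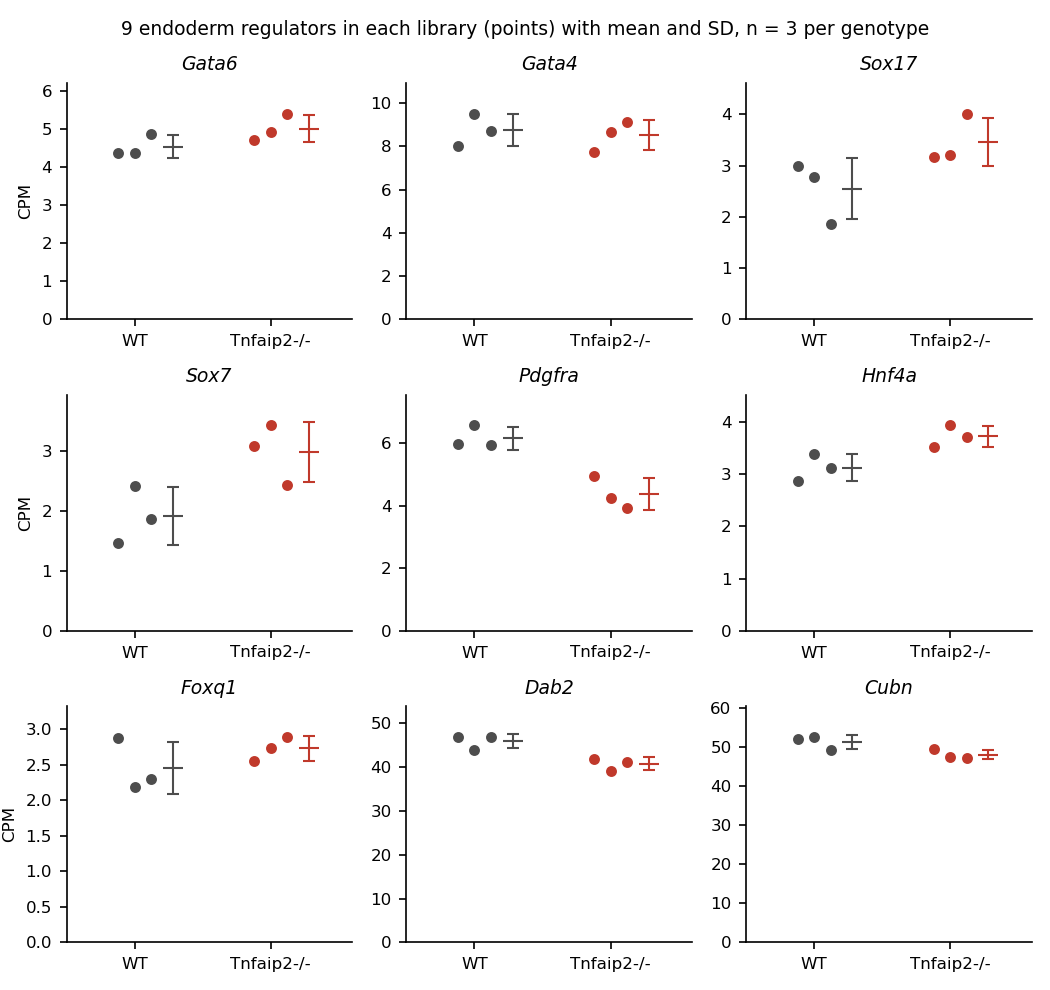
CPM of each of the 9 regulators (y axes from 0, own scale per gene) in the 3 WT and 3 Tnfaip2-/- libraries as points, with mean and SD beside them. The genotypes do not overlap for Sox17, Sox7, Pdgfra, Hnf4a and Dab2, and they overlap for Gata6, Gata4, Foxq1 and Cubn.

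The GATA factors that start and maintain the program were not called. Gata6, a zinc finger factor that can convert ESCs into primitive endoderm when forced on, stood at 4.37, 4.38 and 4.89 CPM in WT libraries and at 4.71, 4.93 and 5.41 CPM in Tnfaip2-/- libraries. The ranges overlapped, since the highest WT library lay above the lowest Tnfaip2-/- library. The log2 fold change was 0.14 ± 0.116 (SE; 95% CI -0.09 to 0.37; edgeR adjusted p = 0.288). Gata4, its close relative with a later onset, stood at 8.03, 9.51 and 8.73 CPM in WT EBs and at 7.75, 8.68 and 9.15 CPM in Tnfaip2-/- EBs. Here the libraries of both genotypes were interleaved, with a log2 fold change of -0.04 ± 0.0905 (95% CI -0.22 to 0.14; edgeR adjusted p = 0.715). For Gata4 the interval allows a fold between 0.858 and 1.1, and for Gata6 between 0.937 and 1.3.

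Genes with the most similar course over the 6 libraries were sought among the 15710 tested genes that reached a mean of 1 CPM, by Euclidean distance between centred log2(CPM + 1) profiles. For Gata6 they were Coa4 (distance 0.0507), Qsox2 (0.0705) and the pseudogene Rpl27a-ps1 (0.0728). For Gata4 they were Gm9431 (0.0812), Gm6153 (0.0817) and Gm9722 (0.0923). Of the cofactors of GATA proteins, a list of 4 genes, only Zfpm1, which encodes FOG1, passed the filter. Zfpm1 was at 6.62, 4.87 and 6 CPM in WT and at 17.8, 17.4 and 18.4 CPM in Tnfaip2-/- EBs, a non-overlapping rise of 3.06-fold (log2 1.62 ± 0.0851; edgeR adjusted p = 1.17e-21). Zfpm2, Lmcd1 and Nkx2-5 were under the filter. Lmcd1 went the other way, with 9, 15 and 16 counts in WT and 4, 2 and 5 counts in Tnfaip2-/- EBs, and 1 cofactor was called lower with no filter and without WT replicate 1 or any of the Tnfaip2-/- replicates.

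The FGF and NANOG inputs that act on Gata6 did differ between genotypes. All 13 genes of this list were called, 5 higher and 8 lower, where 67.7% of all genes tested were called, with a median log2 fold change of -0.11. The call of Sos1, which was lower, was lost with library totals, by DESeq2 and without WT replicate 2 or Tnfaip2-/- replicate 2, and that of Mapk3, also lower, with library totals; the 1.5-fold test called neither. Fgfr2, a receptor that primitive endoderm carries, had the largest increase, from 12.4, 10.6 and 11 CPM in WT to 32.9, 38.2 and 36.9 CPM in Tnfaip2-/- EBs, or 3.18-fold. Dusp6, a phosphatase that is a common readout of ERK activity, had the largest decrease, from 123, 127 and 126 CPM to 30.9, 30.9 and 30.8 CPM, or 4.05-fold. In neither gene did the genotypes overlap (edgeR adjusted p = 1.5e-26 and 3.54e-39). The ligand gene Fgf4 was 1.57-fold lower and Nanog 1.2-fold higher (edgeR adjusted p = 1.02e-21 and 8.97e-12). Whether these inputs bear on the level of Gata6 was not tested.

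Sox7 and Sox17, SOX factors of the F group that act downstream of GATA6 and can also drive ESCs towards extraembryonic endoderm, were higher in Tnfaip2-/- EBs. Sox7, which is most active in parietal endoderm, stood at 1.46, 2.41 and 1.87 CPM in WT libraries and at 3.08, 3.42 and 2.43 CPM in Tnfaip2-/- libraries. The genotypes did not overlap, although the highest WT and the lowest Tnfaip2-/- library were 54 counts each. The log2 fold change was 0.64 ± 0.174 (95% CI 0.29 to 0.99; edgeR adjusted p = 0.00126), or 1.56-fold. Sox17, a factor of primitive and of definitive endoderm, stood at 3, 2.77 and 1.87 CPM in WT and at 3.17, 3.2 and 4.01 CPM in Tnfaip2-/- EBs. All Tnfaip2-/- libraries lay above all WT libraries, by a narrow gap, with the lowest value in WT replicate 3 and the highest in Tnfaip2-/- replicate 3. The log2 fold change was 0.45 ± 0.157 (95% CI 0.13 to 0.76; edgeR adjusted p = 0.0116), or 1.36-fold. This call rested on those libraries, as the adjusted p was 0.18 without WT replicate 3 and 0.111 without Tnfaip2-/- replicate 3, with log2 fold changes of 0.25 and 0.316, and it was 0.0669 by DESeq2. Over the 6 fits that leave out a library the adjusted p of Sox17 ran from 0.00443 to 0.18, and over the other settings, apart from the 1.5-fold test, from 0.00678 to 0.0669.

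Sox18, the remaining gene of the F group, was not called, with 0.642 ± 0.0705 CPM in WT and 0.432 ± 0.246 CPM in Tnfaip2-/- EBs (edgeR adjusted p = 0.158). Without Tnfaip2-/- replicate 1 it was called lower, at a log2 fold change of -1.11. As the F group is also active in endothelium, 11 endothelial markers were examined: 8 were tested, 4 were higher, 3 lower and 1 not called (67.7% of all genes tested were called), and Emcn was at or under 3 counts in every library. Their sum was 35.3, 35.3 and 34.5 CPM in WT and 44.6, 47.5 and 50.5 CPM in Tnfaip2-/- EBs, of which Pecam1, also expressed by ESCs, made up 68.3%. Esam had the largest increase (3.05-fold) and Kdr the largest decrease (7.08-fold), while Cdh5 was under the filter. Their part in the rise of Sox7 and Sox17 was not tested.

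Pdgfra, which encodes the PDGF receptor of the early primitive endoderm, had the largest decrease among the regulators. It stood at 5.96, 6.56 and 5.92 CPM in WT libraries and at 4.93, 4.25 and 3.92 CPM in Tnfaip2-/- libraries. Every Tnfaip2-/- library lay below every WT library. The log2 fold change was -0.49 ± 0.113 (95% CI -0.72 to -0.26; edgeR adjusted p = 0.000189), or 1.4-fold lower. In the list of its ligands and its sister receptor, 4 of 5 genes were tested and all 4 were called (67.7% of all genes tested were called). The ligand gene Pdgfa rose from 12.2, 11.5 and 12 CPM to 24.7, 24.5 and 25.1 CPM (2.08-fold; edgeR adjusted p = 1.26e-19). Pdgfb had the largest increase (4.66-fold; edgeR adjusted p = 4.54e-20) and Pdgfc, at 2.34, 1.88 and 1.79 CPM in WT and 0.308, 0.183 and 0.316 CPM in Tnfaip2-/- EBs, the only decrease among the tested genes (7.29-fold; edgeR adjusted p = 4.32e-12). Pdgfrb was 1.28-fold higher (edgeR adjusted p = 0.00706), a call lost by DESeq2. Pdgfd was under the filter, with 14, 12 and 10 counts in WT and 6, 8 and 8 counts in Tnfaip2-/- EBs.

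Pdgfra is also active in paraxial mesoderm and in fibroblasts, so markers of both were examined. Of 9 paraxial mesoderm markers 5 were tested and 4 were called, all lower, or 2 without WT replicate 1 or Tnfaip2-/- replicate 1 (67.7% of all genes tested were called with all libraries). Their sum was 88.9, 85.8 and 83.8 CPM in WT and 74.2, 76.8 and 81.2 CPM in Tnfaip2-/- EBs, and Tcf15 made up 93.6% of it. The genotypes overlapped for Tbx6 (edgeR adjusted p = 0.0368). Its call was lost by DESeq2, without WT replicate 1 or 3 and without Tnfaip2-/- replicate 1 or 2. That of Tcf15 was lost with library totals and without WT replicate 1 or Tnfaip2-/- replicate 1, and the 1.5-fold test called neither. Among the tested genes Mesp1 had the largest decrease, from 32, 26 and 16 counts to 0, 2 and 2 counts, a WT level 18 times the Tnfaip2-/- level (95% counting interval 6.75 to 67.9), and Foxc2 was at or under 3 counts in every library. Under the filter, Msgn1 (9, 8 and 3 counts in WT and 0, 0 and 0 in Tnfaip2-/- EBs) and Meox1 (9, 8 and 5 against 0, 1 and 1) were also lower. Of 8 fibroblast markers 5 were tested, of which Pdgfrb was higher, Col1a2 and Col3a1 were lower and Col1a1 and Thy1 were not called. The fibroblast sum was 13.1, 13.8 and 12.8 CPM in WT and 11.5, 11.4 and 11.9 CPM in Tnfaip2-/- EBs, with 37.9% in Pdgfrb and Lum at or under 3 counts throughout. The share of these cell types in the lower level of Pdgfra was not tested.

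Hnf4a, a nuclear receptor that controls the secretory and lipid-transport program of visceral endoderm and liver, was not called. It stood at 2.87, 3.39 and 3.11 CPM in WT libraries and at 3.52, 3.93 and 3.7 CPM in Tnfaip2-/- libraries. The genotypes did not overlap, but the gap was narrow. The log2 fold change was 0.25 ± 0.136 (95% CI -0.02 to 0.52; edgeR adjusted p = 0.0999). With 3 libraries per genotype, an exact two-sided permutation test on a single gene cannot give a p below 0.1. Foxq1, a forkhead factor, stood at 2.87, 2.19 and 2.3 CPM in WT and at 2.55, 2.74 and 2.89 CPM in Tnfaip2-/- EBs. Its libraries overlapped, with a log2 fold change of 0.15 ± 0.157 (95% CI -0.16 to 0.47; edgeR adjusted p = 0.397). Of the exon bases of Foxq1, 66.1% are shared with A530084C06Rik on the opposite strand, and 16.8% of those of Sox17 with Gm37587. The library kit does not mark strand, so reads from such partners cannot be told apart and may have been left out as ambiguous, and both partners were listed at 0 counts in all 6 libraries.

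Relatives of the transcription factors and of Dab2 made up a list of 12 genes, of which 6 were tested. Gata2 and Foxa1 were higher, Foxa2 and Dab1 were lower, and Sox18 and Foxa3 were not called, with a median log2 fold change of -0.05. The share called, 66.7% of the tested relatives, lay near the 67.7% of all genes tested and is not a result about the relatives. The pioneer factors Foxa1 and Foxa2 moved in opposite directions. Foxa1 had 16, 9 and 7 counts in WT and 39, 40 and 42 counts in Tnfaip2-/- EBs (3.85-fold higher; edgeR adjusted p = 1.11e-08), and Foxa2 had 50, 59 and 61 counts in WT and 27, 27 and 20 counts in Tnfaip2-/- EBs (2.23-fold lower; edgeR adjusted p = 1.07e-06). Hnf4g, Gata5 and Foxc2 were at or under 3 counts in every library.

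Dab2 and Cubn, the most abundant of the 9 per kilobase, serve protein uptake at the apical surface of visceral endoderm. Dab2, the clathrin adaptor, stood at 46.8, 44 and 46.9 CPM in WT libraries and at 41.9, 39.1 and 41.2 CPM in Tnfaip2-/- libraries. The Tnfaip2-/- libraries all lay below the WT libraries, and the log2 fold change was -0.17 ± 0.0444 (95% CI -0.26 to -0.08; edgeR adjusted p = 0.000731), or 1.13-fold lower. Cubn, which encodes the receptor cubilin, stood at 52.1, 52.6 and 49.2 CPM in WT and at 49.4, 47.5 and 47.3 CPM in Tnfaip2-/- EBs. Its genotypes overlapped at 1 library each, and the log2 fold change was -0.09 ± 0.0418 (95% CI -0.18 to -0.01; edgeR adjusted p = 0.0458), or 1.07-fold lower. The call of Cubn was lost under 5 of the other settings of the whole data set and without WT replicate 1 or 2 or Tnfaip2-/- replicate 2 or 3, with an adjusted p from 0.01 to 0.125 over the 6 fits that leave out a library and from 0.0252 to 0.17 over the other settings apart from the 1.5-fold test.

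The partners of this uptake route, a list of 9 genes, were all called, 6 higher and 3 lower, where 67.7% of all genes tested were called, with a median log2 fold change of 0.39. Amn and Lrp2, both lower, are also in the visceral endoderm list. The transmembrane partners of cubilin fell. Amn, the chain that anchors cubilin, stood at 12.2, 10.9 and 9.32 CPM in WT and 7.17, 8.22 and 7.35 CPM in Tnfaip2-/- EBs (1.42-fold lower; edgeR adjusted p = 4.86e-06). Amn (chr12:111271095-111276426) lies near the edited gene Tnfaip2 (chr12:111442469-111455018), on the same strand. Whether the edit changed Amn as a nearby gene was not tested. Lrp2, which encodes megalin, had the largest decrease of the list, from 152, 160 and 161 CPM to 106, 102 and 105 CPM (1.51-fold; edgeR adjusted p = 6.32e-22). Neither gene overlapped between genotypes. The folate receptor gene Folr1 had the largest increase, from 17.6, 17.2 and 18.1 CPM to 33.8, 30.2 and 33.6 CPM (1.84-fold; edgeR adjusted p = 2.3e-18), and the clathrin heavy chain gene Cltc, the most abundant, was 1.51-fold higher (edgeR adjusted p = 1.02e-25). Amn and Lrp2 thus fell while 6 of the other 7 partners rose, the exception being the adaptor subunit gene Ap2m1.

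**Figure D3:**
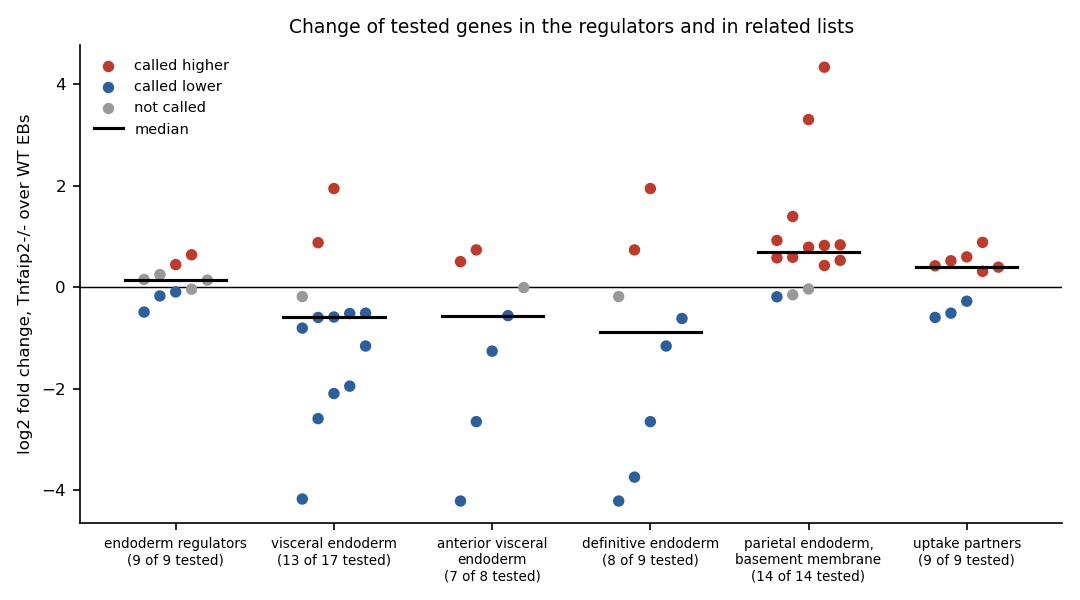
Log2 fold change in Tnfaip2-/- EBs over WT EBs (y axis) of each tested gene of the 9 regulators and of 5 related lists, coloured by edgeR call, with a bar at the median. Medians were 0.14 for the regulators, -0.60 for visceral, -0.56 for anterior visceral and -0.89 for definitive endoderm, 0.69 for parietal endoderm and 0.39 for uptake partners. Some genes are in several lists.

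Visceral endoderm genes other than the 9 regulators were mostly lower in Tnfaip2-/- EBs. Of 17 listed genes 13 were tested, 10 were lower, 2 were higher (Rbp4 and Foxa1) and Ihh was not called (67.7% of all genes tested were called), with a median log2 fold change of -0.60 against 0.003 for all genes tested. Amn, which lies near the edited gene, and Lrp2, both lower, were also counted among the uptake partners. Apoa2, Apoa4, Apoc2 and Trf were under the filter, and Trf, like Apoa4 and Apoc2, shares exon bases with another gene. Besides the 1.5-fold test, the call of Apom was lost by DESeq2 and without WT replicate 2, and that of Cited1 without Tnfaip2-/- replicate 1. Afp, the classical marker of visceral endoderm, had the largest decrease, its counts in WT corresponding to 20.1 times the Tnfaip2-/- level (95% counting interval 6.58 to 100; edgeR adjusted p = 1.77e-09). Apoa1, an apolipoprotein of high-density lipoprotein, fell from 3.18, 3.13 and 2.98 CPM to 0.616, 0.32 and 0.586 CPM (6.02-fold; edgeR adjusted p = 3.22e-14). Apob, the structural protein of lipoprotein particles, fell from 7.15, 9.02 and 7.7 CPM to 2.2, 1.6 and 1.76 CPM (4.27-fold; edgeR adjusted p = 2.48e-18). The genotypes were far apart in each of these genes. Ttr, the thyroxine carrier transthyretin, fell from 4.85, 5.09 and 5.19 CPM to 1.45, 1.32 and 1.13 CPM (3.86-fold; edgeR adjusted p = 2.68e-15), and Mttp, which loads lipid onto APOB, was 1.5-fold lower (edgeR adjusted p = 5.31e-09).

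The secreted and lipid-carrying proteins, a grouping of 10 genes made after values were seen, had 6 tested genes, of which 5 were lower and 1 higher (67.7% of all genes tested were called). The exception was Rbp4, the retinol carrier, at 3.13, 1.97 and 2.64 CPM in WT and 4.71, 5.11 and 4.42 CPM in Tnfaip2-/- EBs (1.84-fold higher; edgeR adjusted p = 5.44e-07). Hnf4a, an upstream regulator of such products, was not called, at a log2 fold change of 0.25 (CI -0.02 to 0.52). It was higher in every Tnfaip2-/- library than in any WT library, by a narrow gap. The pioneer factors Foxa2 and Foxa1, both in the visceral endoderm list, were 2.23-fold lower and 3.85-fold higher (edgeR adjusted p = 1.07e-06 and 1.11e-08). Whether these factors bear on the products, or whether the products and the regulators differ in their response, was not tested.

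**Figure D4:**
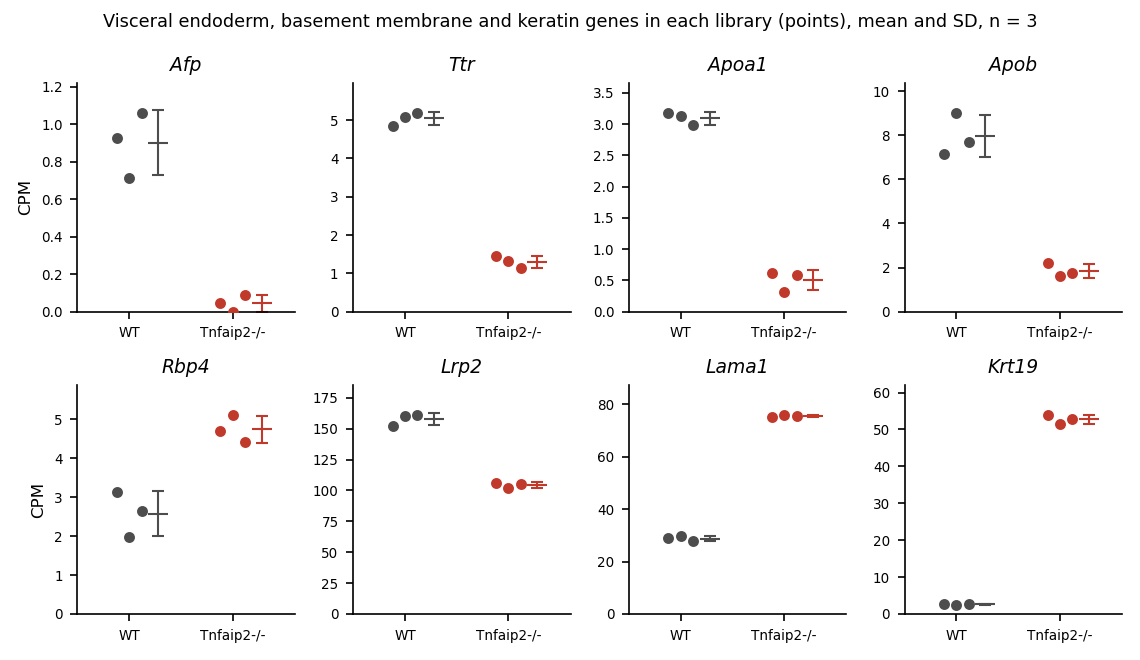
CPM (y axes from 0, own scale per gene) of 6 visceral endoderm genes, the laminin gene Lama1 and the keratin gene Krt19 in the 3 WT and 3 Tnfaip2-/- libraries as points, with mean and SD. Afp, Ttr, Apoa1, Apob and Lrp2 are lower and Rbp4, Lama1 and Krt19 higher in every Tnfaip2-/- library than in any WT library.

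Promoter sequences are shown for Hnf4a and Dab2, which have 2 annotated starts each, and for Afp, Apoa1 and Apob, 3 visceral endoderm products that fell together; these genes were chosen after their values were seen. The sequences are from RefSeq (GRCm38.p6), run 5′ to 3′ on the strand of the gene from 250 bases before to 50 bases after the start, and 4 of the 9 regulators (Hnf4a, Dab2, Pdgfra and Cubn) had an entry. Capitals mark matches on either strand to the letters AGATAA (bound by GATA factors; TTATCT on the other strand), CAAAGTCCA (HNF4; TGGACTTTG), TGTTTAC (forkhead; GTAAACA) and ACAAAG (SOX; CTTTGT), where the SOX and HNF4 letters can overlap. Of all 32851 promoters in the table, 11.2% hold the GATA, 0.475% the HNF4, 3.65% the forkhead and 18.7% the SOX letters. The upstream start of Hnf4a (chr2:163506607-163506906, + strand) opens the gene, and the downstream start (chr2:163546905-163547204, + strand) lies within its annotated span; the same holds for Dab2 (chr15:6299539-6299838 and chr15:6386498-6386797, both + strand). The starts of Afp (chr5:90490464-90490763), Apoa1 (chr9:46228380-46228679) and Apob (chr12:7977427-7977726) are on the + strand.
Hnf4a upstream: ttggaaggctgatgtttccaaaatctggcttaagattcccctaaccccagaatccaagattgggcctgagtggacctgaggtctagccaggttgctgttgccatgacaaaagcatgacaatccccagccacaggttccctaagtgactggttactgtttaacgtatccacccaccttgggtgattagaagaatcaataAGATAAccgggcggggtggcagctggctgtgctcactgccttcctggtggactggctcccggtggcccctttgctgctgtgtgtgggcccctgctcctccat
Hnf4a downstream: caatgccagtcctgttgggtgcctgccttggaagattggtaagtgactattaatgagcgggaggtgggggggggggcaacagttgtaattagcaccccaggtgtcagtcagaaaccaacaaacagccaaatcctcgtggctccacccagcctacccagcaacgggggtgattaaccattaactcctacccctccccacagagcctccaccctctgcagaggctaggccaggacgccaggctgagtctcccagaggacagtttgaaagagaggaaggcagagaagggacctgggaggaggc
Dab2 upstream: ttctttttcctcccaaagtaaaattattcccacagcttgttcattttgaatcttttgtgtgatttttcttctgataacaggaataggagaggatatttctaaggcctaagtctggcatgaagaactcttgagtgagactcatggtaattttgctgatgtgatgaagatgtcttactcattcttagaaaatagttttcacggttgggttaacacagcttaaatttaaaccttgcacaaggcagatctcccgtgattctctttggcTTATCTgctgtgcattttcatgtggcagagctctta
Dab2 downstream: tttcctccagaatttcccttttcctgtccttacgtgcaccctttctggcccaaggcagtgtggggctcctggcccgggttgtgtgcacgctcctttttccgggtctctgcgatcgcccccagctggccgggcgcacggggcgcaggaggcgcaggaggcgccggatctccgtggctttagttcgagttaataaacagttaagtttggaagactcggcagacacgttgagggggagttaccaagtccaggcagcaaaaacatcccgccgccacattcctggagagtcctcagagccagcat
Afp: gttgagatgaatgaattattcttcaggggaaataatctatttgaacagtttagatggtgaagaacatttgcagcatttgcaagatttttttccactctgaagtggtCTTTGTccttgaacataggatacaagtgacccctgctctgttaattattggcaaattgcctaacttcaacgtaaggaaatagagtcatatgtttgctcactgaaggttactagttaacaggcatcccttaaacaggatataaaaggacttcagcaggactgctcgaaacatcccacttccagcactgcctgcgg
Apoa1: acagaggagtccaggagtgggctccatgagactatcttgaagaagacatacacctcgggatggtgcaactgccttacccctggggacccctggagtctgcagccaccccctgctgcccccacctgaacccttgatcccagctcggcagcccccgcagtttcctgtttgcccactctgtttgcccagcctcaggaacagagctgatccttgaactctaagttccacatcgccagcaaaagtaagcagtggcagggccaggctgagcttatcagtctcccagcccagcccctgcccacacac
Apob: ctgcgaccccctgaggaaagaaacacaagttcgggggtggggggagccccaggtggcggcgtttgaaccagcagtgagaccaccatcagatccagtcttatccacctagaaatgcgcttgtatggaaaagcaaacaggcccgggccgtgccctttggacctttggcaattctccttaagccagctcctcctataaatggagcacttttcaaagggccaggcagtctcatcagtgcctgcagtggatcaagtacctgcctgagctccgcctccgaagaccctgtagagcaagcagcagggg

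The upstream window of Hnf4a held 1 match to the GATA letters, as did the upstream window of Dab2, and the downstream windows of both held none of the 4 motifs. Afp held 1 SOX match, and the windows of Apoa1 and Apob, like those of Pdgfra and Cubn, held no match. Counts per gene cannot tell which start of Hnf4a or Dab2 was used, and a match describes letters in the window only. Only these exact letters were sought, so a window without a match may still hold binding sites that are spelled differently.

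The lists of anterior visceral endoderm and of definitive endoderm share Cer1, Hhex, Lhx1 and Gsc, and definitive endoderm also shares Foxa1 and Foxa2 with the visceral endoderm list. Of 8 anterior visceral endoderm genes, 4 of them in another list, 7 were tested, 4 were lower, 2 were higher and Otx2 was not called (67.7% of all genes tested were called, 34.0% higher and 33.7% lower). Of 9 definitive endoderm genes, 6 of them in another list, 8 were tested, 5 were lower, 2 were higher and Cxcr4 was not called (67.7% of all genes tested were called, 33.7% lower). Among the tested genes Lhx1 had the largest decrease in both lists, from 50, 63 and 65 counts in WT to 4, 4 and 1 counts in Tnfaip2-/- EBs (18.6-fold; edgeR adjusted p = 5.47e-16). Cer1, under the filter, had 18, 10 and 11 counts in WT and 0, 1 and 1 in Tnfaip2-/- EBs. Its WT level was 19 times the Tnfaip2-/- level (95% counting interval 4.92 to 162). Mixl1, a homeobox gene of the primitive streak, fell 13.4-fold, from 7.68, 6.92 and 7.24 CPM to 0.748, 0.183 and 0.676 CPM (edgeR adjusted p = 3.7e-22). Eomes, the most abundant of the definitive endoderm genes, fell 1.53-fold, and Hhex rose 1.66-fold (edgeR adjusted p = 2.24e-12 and 3.62e-08). Lefty1, the most abundant anterior visceral endoderm gene and also a gene of ESCs, rose 1.42-fold (edgeR adjusted p = 1.11e-21). Sox17, shared by definitive and primitive endoderm, was called higher by edgeR, while 5 of the 8 tested genes of the definitive endoderm list were lower. The call of Sox17 was lost by DESeq2 and without WT replicate 3 or Tnfaip2-/- replicate 3. Whether Sox17 differs from the listed genes was not tested.

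Parietal endoderm and basement membrane genes moved the other way from the visceral endoderm genes. Of 14 genes tested, 11 were higher, Krt8 was lower and Lamc1 and Krt18 were not called, with a median log2 fold change of 0.69. Of all genes tested 67.7% were called, 34.0% higher and 33.7% lower. The 1.5-fold test called 6 of the 14 higher. The sum of the 14 was 922, 940 and 899 CPM in WT and 1364, 1343 and 1368 CPM in Tnfaip2-/- EBs, with 30.3% in Nid2. Krt19 had the largest increase, from 2.69, 2.46 and 2.68 CPM to 53.9, 51.6 and 52.8 CPM (20.2-fold; edgeR adjusted p = 1.37e-40). The laminin chain gene Lama1 rose from 28.9, 29.6 and 27.8 CPM to 75.1, 75.9 and 75.7 CPM (2.63-fold; edgeR adjusted p = 5.09e-31), and the collagen IV genes Col4a1 and Col4a2 rose 1.78-fold and 1.89-fold (edgeR adjusted p = 3.78e-27 and 6.36e-25). Thbd, a marker of parietal endoderm, had 5, 1 and 0 counts in WT and 18, 19 and 24 counts in Tnfaip2-/- EBs. Krt8, which pairs with Krt18 in simple epithelia and endoderm, was 1.14-fold lower (edgeR adjusted p = 0.0166), a call lost by DESeq2 and without Tnfaip2-/- replicate 1. Krt18 was called lower with no filter and without WT replicate 2 or Tnfaip2-/- replicate 1. Beside the sum of the 14 genes, Sox7 stood at only 1.91 ± 0.479 CPM in WT and 2.98 ± 0.502 CPM in Tnfaip2-/- EBs. Bulk RNA does not tell which cells made the transcripts of the 14 genes, and the part of parietal endoderm in their rise was not tested.

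Keratin and basement membrane genes are also active in trophoblast, whose markers moved with the genotype. Of 8 trophoblast markers 5 were tested, 4 were higher and Cdx2 was lower (67.7% of all genes tested were called). Their sum was 27.3, 24.7 and 26.3 CPM in WT and 180, 177 and 179 CPM in Tnfaip2-/- EBs, but Tfap2c, which germ cells and ESCs also express, made up 94.0% of it. The defining markers Elf5 and Prl3d1 were at or under 3 counts in every library, Prl3d1 at 0, and Cdx2 had 42, 37 and 28 counts in WT and 1, 2 and 0 counts in Tnfaip2-/- EBs. The part of trophoblast-like cells in the rise of Krt19 and Lama1 was not tested.

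**Figure D5:**
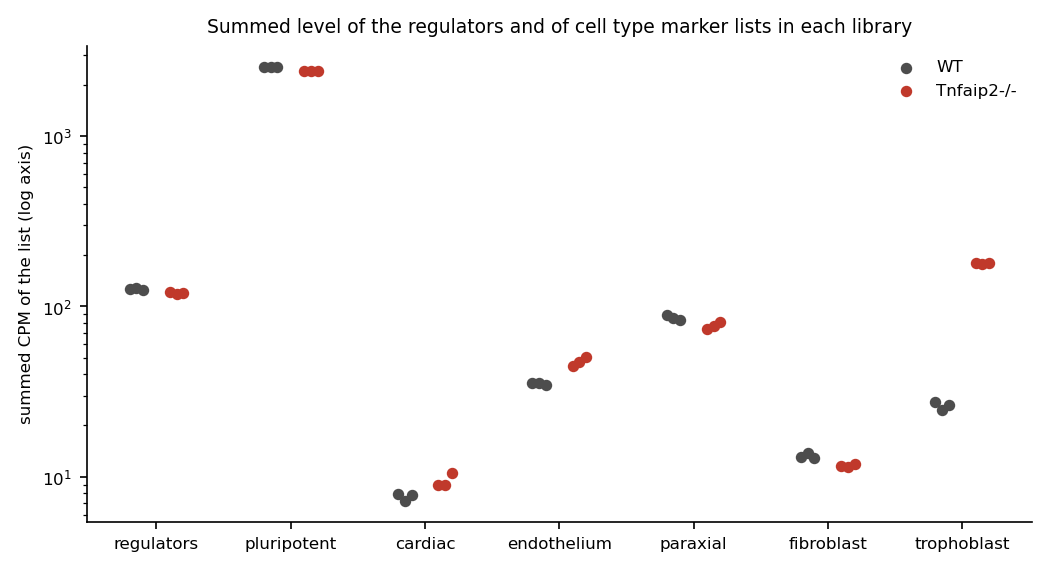
Summed CPM (y axis, log scale) of the 9 regulators and of 6 lists of cell type markers in each library. The regulators lie between 118 and 128 CPM in all 6 libraries, while the trophoblast sum, mostly Tfap2c, is 24.7 to 27.3 CPM in WT and 177 to 180 CPM in Tnfaip2-/- EBs.

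Gata4 and Gata6 are also cardiac factors, so cardiac markers were examined. Of 13 cardiac markers 5 were tested, 4 were higher and Myl7 was lower (67.7% of all genes tested were called), and 8 were under the filter. Of these, Actc1 (12, 9 and 6 counts in WT and 1, 2 and 2 in Tnfaip2-/- EBs), Hand2 (9, 1 and 7 against 1, 0 and 0) and Mef2c (10, 11 and 9 against 8, 1 and 5) were lower in every Tnfaip2-/- library by CPM, Isl1 (4, 3 and 5 against 8, 5 and 5) was higher, and Tbx5 was at or under 3 counts in every library. In Hand2 and Isl1 the closest WT and Tnfaip2-/- libraries had equal counts, so their separation comes from library scaling. The split of the cardiac markers depends on the filter, as 3 were lower with no filter and only 1 was higher with the stricter filter. The number higher was 2 by DESeq2, by the 1.5-fold test and without Tnfaip2-/- replicate 3. Their sum was 7.94, 7.23 and 7.79 CPM in WT and 8.98, 8.99 and 10.5 CPM in Tnfaip2-/- EBs, with 40.3% in Myh6. Of 9 pluripotency genes all were called, 5 higher and 4 lower (67.7% of all genes tested were called), with sums of 2542, 2537 and 2537 CPM in WT and 2406, 2403 and 2409 CPM in Tnfaip2-/- EBs, of which Pou5f1 made up 23.8%. Dppa3 had the largest increase (6.37-fold) and Pou5f1 the largest decrease (1.81-fold; edgeR adjusted p = 8.26e-32 and 1.6e-32). The call of Utf1, whose genotypes overlapped (edgeR adjusted p = 0.0465), was lost with library totals, DESeq2, the stricter filter, a replicate block and the 1.5-fold test, and without WT replicate 1 or 2 or Tnfaip2-/- replicate 1. Whether a difference in the share of pluripotent cells bears on the levels of the endoderm regulators was not tested.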

How the data were processed

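RNA-seq was performed by the authors on 6 EB libraries with the unstranded TruSeq RNA v2 kit. Reads were trimmed, aligned to GRCm38 with TopHat2 2.1.0 and counted over genes with featureCounts 1.5.0 (versions per the submitters' processing notes), and the deposited values are raw counts of uniquely placed reads per gene; whether counting used strand is not given in the sources used here. Of 52636 gene IDs, 52403 were paired with a symbol and a position through GENCODE M21. Genes were filtered with filterByExpr (minimum count 10, minimum total count 15) and tested with edgeR 4.0.16 in R 4.3.3 (TMM factors, robust quasi-likelihood fit on genotype, Benjamini-Hochberg adjustment over all 17849 genes, threshold 0.05); library totals of about the same size give each gene a similar precision in all libraries. The SE of a log2 fold change was taken from its F statistic. The calculation was tested on simulated data. The members and lists were chosen with earlier results of these data known. A few listed genes are not reported here and are left out of the counts and medians of their lists. Named genes are the 9 regulators, Tnfaip2 and, from each list, the genes with the largest increase and decrease among those called, the most abundant gene, genes not called or under the filter where a sentence is about them; other genes were named after their values were seen. Alternatives were DESeq2 size factors or library totals in place of TMM, DESeq2 1.42.0, no or a stricter filter, a replicate block, the legacy quasi-likelihood form, a test against a 1.5-fold change and leaving out each library. No sample or column of values was left out. Reads shared between genes cannot be reassigned from counts.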

Additional observations from a re-analysis of the deposited data

How the results depend on the processing

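Under the alternatives, 435 counts of called genes were within 1.5 times the reported count and 41 were not, and of the values of the 9 regulators 108 kept direction and side of the threshold, 16 lost the call and 2 changed sign; the same numbers for the other listed genes were 1263, 75 and 5, with 4 newly called. The causes were not tested, except that a 1.5-fold test asks for a larger change and that a changed filter or a left-out library changes the genes or samples used. Sox7, Pdgfra and Dab2 were called under every alternative but the 1.5-fold test. By that test 2798 genes were called, 1615 higher and 1183 lower, and 0 of the 9 regulators (0 at an unadjusted p below 0.05; DESeq2 called 3, with 4 at an unadjusted p below 0.05). The log2 fold changes there were 0.445 for Sox17, 0.639 for Sox7, -0.490 for Pdgfra, -0.172 for Dab2 and -0.093 for Cubn. It called 5 visceral endoderm genes lower, 0 anterior visceral endoderm genes higher, 6 parietal endoderm genes higher and 0 lower, 1 definitive endoderm gene higher, 1 uptake partner higher and 0 lower, 1 relative of the regulators higher and 1 lower, 1 gene of the FGF and NANOG list higher and 2 lower, 2 pluripotency genes higher and 1 lower, 2 cardiac and 2 endothelial markers higher, 2 paraxial markers lower and 0 fibroblast markers higher. DESeq2 called 3 regulators, 0 parietal endoderm genes lower, 2 cardiac markers higher and 0 fibroblast markers higher, and gave log2 fold changes of 0.441 for Sox17 (adjusted p = 0.0669) and -0.096 for Cubn (adjusted p = 0.119). With no filter, 2 parietal endoderm genes, 1 GATA cofactor, 3 cardiac and 4 fibroblast markers were lower. With the stricter filter 1 cardiac marker and 1 relative of the regulators were higher, 1 fibroblast marker was lower and Cubn was at -0.087 (adjusted p = 0.0598). With library totals only, Cubn was at -0.065 (adjusted p = 0.17) and Otx2 at 0.019. Replicate numbers were shared between genotypes, but nothing says that they pair cultures, and deviations of same-numbered libraries correlated at -0.0218, -0.0252 and -0.0324; no library correlated best with its own number. With a replicate block 11841 genes were called, and Cubn was at -0.094 (edgeR adjusted p = 0.0672). Leaving out each library in turn gave 3 to 5 called regulators, 3 without Tnfaip2-/- replicate 3. Log2 fold changes then ranged from -0.106 to 0.024 for Gata4, with a changed sign without WT replicate 2 (0.018) and without Tnfaip2-/- replicate 1 (0.024), from 0.250 to 0.571 for Sox17 and from -0.133 to -0.080 for Cubn. Those of Col1a1 ranged from -0.186 to 0.158 and those of Foxa3 from -0.067 to 0.220, neither of them called. Called lower were 1 to 2 parietal endoderm genes, 0 to 1 GATA cofactors and 2 to 4 paraxial markers, and called higher were 2 to 4 cardiac markers. Depth limits the regulators most at Sox7, Sox17, Foxq1 and Hnf4a, whose libraries held 33 to 89 counts each.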
